A study of Rattus norvegicus with 24 samples.

Results

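The clock output factors examined here were 7 genes, Dbp, Tef, Hlf, Nfil3, Ciart, Bhlhe40 and Bhlhe41, taken by symbol from the transcript table and summed per gene, out of 15273 genes in all. RNA was sequenced from tibialis anterior, a fast dorsiflexor muscle of the shin, of 12 male Wistar rats. In each rat the left hind limb had been trained once daily by the SpillOver method for 2, 10, 20 or 30 days, with 3 rats per time point. SpillOver resistance training contracts the dorsiflexors by nerve stimulation from an implanted pulse generator while part of the plantarflexors is recruited as resistance. The right tibialis anterior of the same rat was unstimulated and served as the contralateral muscle, so both muscles came from an animal that carried the implant and had undergone the surgery. By the methods of the study, sessions took place early in the light phase, when rats are less active, and muscles were taken 1 h after the last session. The series text names 4 animals per time point, and the samples of 3 were analysed here. No rat without an implant was among the samples, and time point, day of harvest and age cannot be told apart. The hour of harvest of each rat was not among the sample details used here, so it cannot be told apart from them either.

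The molecular clock is a transcriptional loop in which CLOCK and BMAL1, the latter encoded by Arntl, bind E-boxes and drive their own repressors, the PER and CRY proteins. The output factors carry that rhythm to other genes. DBP, TEF and HLF are PAR bZIP factors that activate transcription at D-boxes, and NFIL3, also called E4BP4, represses through the same sites. CIART, also called CHRONO, and the bHLH repressors BHLHE40 and BHLHE41, also called DEC1 and DEC2, act back on CLOCK and BMAL1 or on the E-boxes they use. In skeletal muscle the clock has been studied for its links with fuel use, and contraction is known to shift it.

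Levels are given in scaled TPM, a value per transcript length and per sample total that was divided by a median-of-ratios factor for each sample. Differences are given on the scale log2(scaled TPM + 1), which understates the change of genes with low values such as Ciart and Hlf. Values of this kind keep no sequencing depth, so the counting error behind each value is unknown. All 7 genes passed the filter on low values. The 6 muscle fibre markers in the table were present in every group, with a summed level of 71868 to 81693 in contralateral and 46272 to 78979 in trained muscles, and 5 of 6 were lower in trained muscles over the 12 rats. These 6 include Myh4, the type IIB myosin gene. The paper reports that Myh4 and the share of type IIB fibres fell with training, while all fibre types grew in area. The part of that change of fibre type in the lower markers was not tested. The 5 macrophage markers summed to 3.91 to 11.4 in contralateral and 12.2 to 33.4 in trained muscles, and the 4 fibroblast markers to 52.2 to 168.9 and 155.2 to 509.4. All 5 and all 4 rose over the 12 rats, and no marker of these lists was at 0 in all 3 muscles of a group. These shifts accompanied every difference between trained and contralateral muscles below, and their part in those differences was not tested. In whole muscle, fewer cells of a type and less RNA per cell cannot be told apart.

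Promoter sequence is shown for Ciart and Dbp, and in short windows for the other genes with a match to the E-box CACGTG. That E-box is the site that links the core loop with its outputs. RefSeq (build GRCr8) gave a window from 250 bases before to 50 bases after the gene start for 6 of the 7 genes, all but Hlf. The bases before the start of Ciart (chr2:186112247-186112496, minus strand) and of Dbp (chr1:105312006-105312255, plus strand) are printed 5′ to 3′ on the strand of the gene, with every CACGTG in capitals:
Ciart: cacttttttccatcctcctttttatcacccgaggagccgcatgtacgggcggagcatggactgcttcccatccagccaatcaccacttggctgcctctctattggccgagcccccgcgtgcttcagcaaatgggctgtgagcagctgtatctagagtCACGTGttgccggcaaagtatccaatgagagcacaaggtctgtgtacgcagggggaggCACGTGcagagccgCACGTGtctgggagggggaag
Dbp: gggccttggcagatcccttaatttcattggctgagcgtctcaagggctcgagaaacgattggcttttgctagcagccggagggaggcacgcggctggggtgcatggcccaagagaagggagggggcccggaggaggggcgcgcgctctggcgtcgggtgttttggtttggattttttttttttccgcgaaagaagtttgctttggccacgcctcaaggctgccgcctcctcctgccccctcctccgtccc
The Ciart window held 3 matches, which began 93, 35 and 21 bases before the start, and the Dbp window held none.

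Tef, Bhlhe40 and Bhlhe41 each had 1 match, beginning 198, 220 and 48 bases before the start, shown here in 30 bases:
Tef (chr7:115206617-115206646, plus strand): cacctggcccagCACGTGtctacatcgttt
Bhlhe40 (chr4:143174218-143174247, plus strand): agcgttgtccaaCACGTGagactcatgtga
Bhlhe41 (chr4:180569386-180569415, minus strand): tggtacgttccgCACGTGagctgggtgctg
CACGTG reads the same on both strands. It occurred in 6.42% of all 33469 rat promoter windows of this length and 3 or more times in 19 of them, or 0.0568%. Nfil3 had no match in its window. On both strands, none of the 6 windows held the E′-box CACGTT (4.83% of all windows), the D-box TTATGNAA (3.66%), the ROR element TAGGTCA (2.63%) or the cAMP response element TGACGTCA (1.83%). Only these spellings were searched, so variants of each site may be present. A match describes the letters only, and no binding was measured here.

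Ciart was higher in the trained muscle of all 12 rats, and no other clock output factor passed the test in the same direction at all 4 time points. Dbp was lower in trained than in contralateral muscle after 2 days and higher after 10, 20 and 30 days. Hlf fell after 20 and 30 days, Bhlhe40 rose after 10 days, and Tef, Nfil3 and Bhlhe41 passed the threshold at no time point. With limma, the rat as a block and Benjamini-Hochberg adjustment over 11196 genes, 2 of the 7 genes passed an adjusted p of 0.05 after 2 days, where 21.6% of all genes did. After 10, 20 and 30 days 3 of 7 passed each time, beside 20.1%, 17.4% and 12.3% of all genes. Over the mean of the 12 rats 4 of 7 passed, beside 43.4% of all genes. With 7 genes, no difference between such shares is read here. The median difference of the 7 genes was -0.25, 0.48, 0.24 and 0.16 after 2, 10, 20 and 30 days, and that of all genes lay between -0.03 and -0.01.

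**Figure D1:**
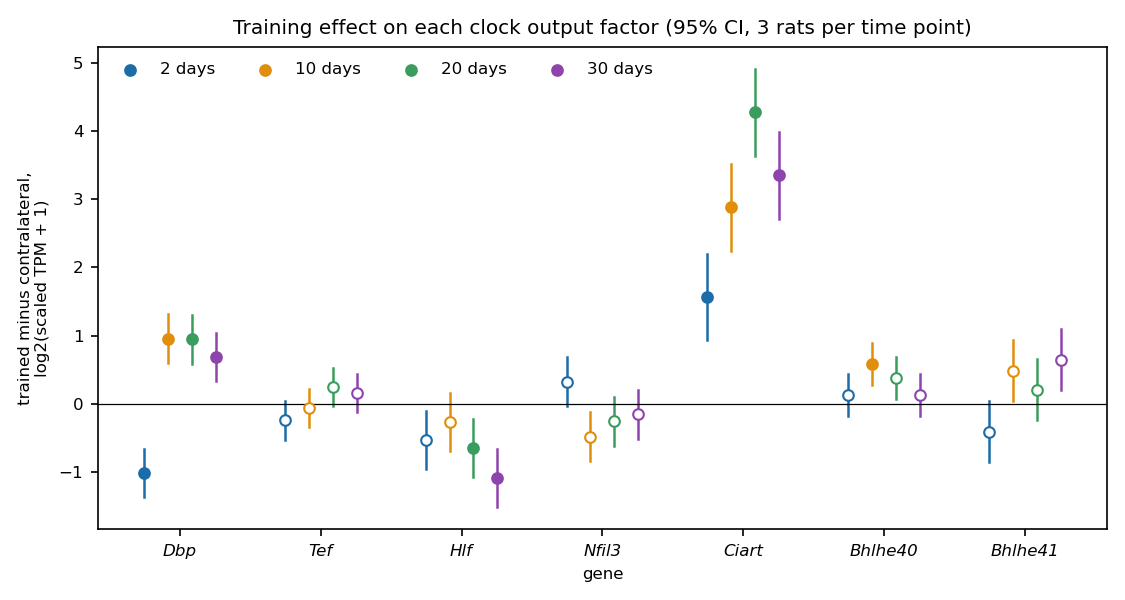
Difference between trained and contralateral muscle of the same rat for each clock output factor, in log2(scaled TPM + 1), with 95% confidence intervals from limma (3 rats per time point). Filled circles passed an adjusted p of 0.05 and open circles did not. Ciart lies above 0 at all 4 time points, from 1.57 to 4.28, and Dbp crosses from -1.02 after 2 days to 0.95 after 10 days.

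Among the activators, Dbp (ENSRNOG00000021027; Rnor_6.0, chr1:101687855-101692847, plus strand) had the widest range of levels. After 2 days it stood at 38.5, 25.8 and 57.4 in the contralateral muscles and at 14.6, 14.3 and 30.1 in the trained muscles of the same rats. It was lower in the trained muscle of all 3 rats, although the groups overlapped because the trained muscle of the third rat exceeded the contralateral muscle of the second. After 10 days the contralateral values were 6.65, 5.15 and 4.66 and the trained values 14.5, 9.49 and 10.9. After 20 days the contralateral values were 6.22, 8.73 and 11.4 and the trained values 12.7, 21.3 and 19.2. After 30 days the contralateral values were 6.03, 5.88 and 9.18 and the trained values 14.6, 9.93 and 10.99. At these 3 time points Dbp was higher in the trained muscle of 9 of 9 rats, and the groups did not overlap, as for 34.6%, 31.9% and 28.6% of all genes.

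The Dbp difference was -1.02 ± 0.17 (SE; adjusted p = 0.000796) after 2 days, then 0.95 ± 0.17 (adjusted p = 0.00127) after 10, 0.94 ± 0.17 (adjusted p = 0.00176) after 20 and 0.68 ± 0.17 (adjusted p = 0.0170) after 30 days. The ratio of the means, trained over contralateral, was 0.485 after 2 days and 2.12, 2.02 and 1.68 after 10, 20 and 30 days. That the effect of training on Dbp differed between time points was tested directly (limma F = 32.9, adjusted p = 0.00248), and 1.14% of all genes passed that test. The effects after 10, 20 and 30 days exceeded that after 2 days by 1.97, 1.96 and 1.70 (adjusted p = 0.00604, 0.00189 and 0.00371), contrasts in which 0.0625%, 1.73% and 2.80% of all genes passed. The mean over the 12 rats, which averages opposite directions, was 0.39 (adjusted p = 0.00178) and did not pass an exact sign-flip permutation test (two-sided, p = 0.159).

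The direction of Dbp after 2 days rested on the choice of control. The paper compared each trained group with a pooled control group of 12. Contralateral Dbp was far higher after 2 days than later, as given below, so a pooled control lies well under the 2-day muscles. Against the 12 contralateral muscles pooled over time points and without the block, the 2-day difference was 0.73 (adjusted p = 0.305), and those after 10, 20 and 30 days were 0.08, 0.64 and 0.11 (adjusted p = 0.928, 0.425 and 0.910). The call for Dbp after 30 days was lost on the values as deposited (adjusted p = 0.127), without replicate 1 (adjusted p = 0.139) or 2 (adjusted p = 0.0832) of that group, in the gene-level table (adjusted p = 0.246), and against time-matched muscles without the block (adjusted p = 0.153).

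**Figure D2:**
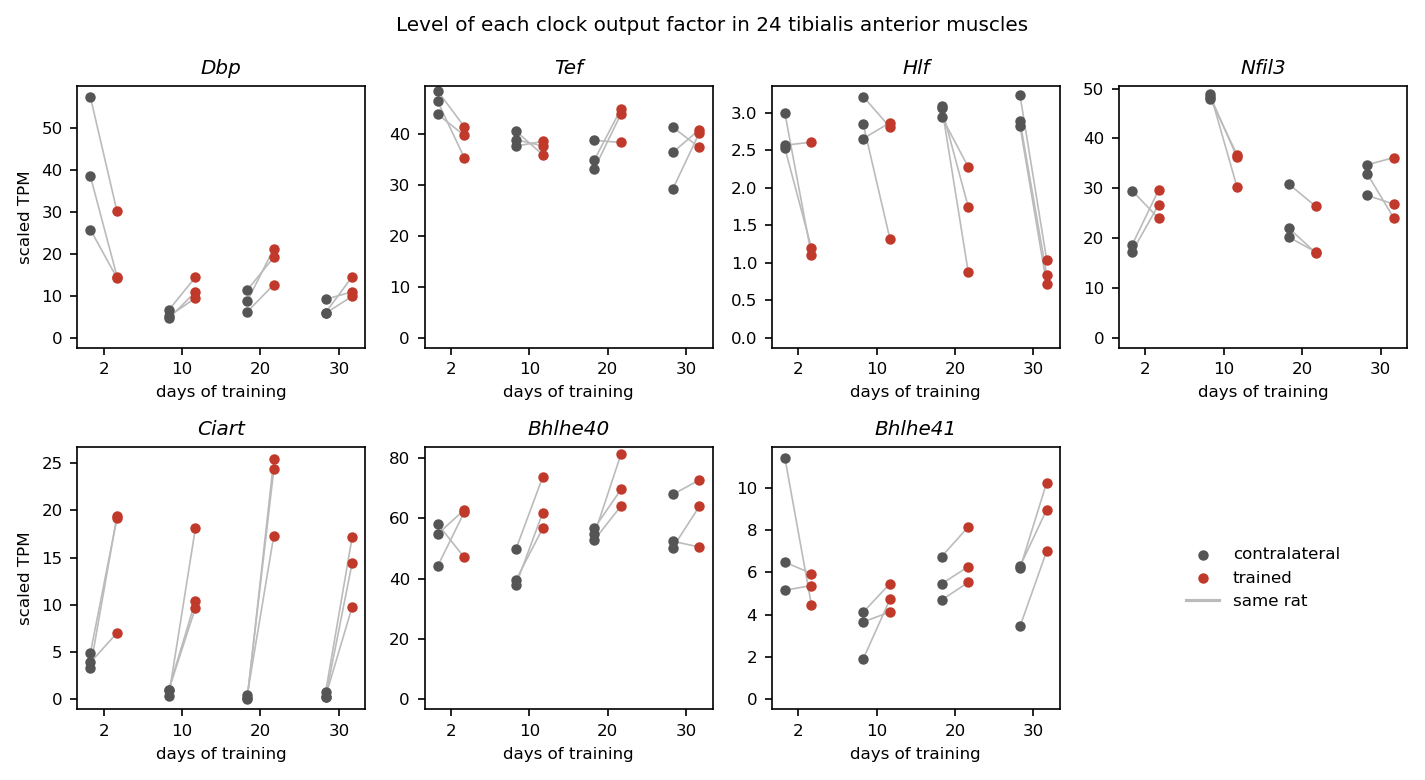
Level of each clock output factor in scaled TPM in the contralateral (grey) and trained (red) muscle of every rat after 2, 10, 20 and 30 days, with a line joining the muscles of a rat. Contralateral Dbp lies between 25.8 and 57.4 after 2 days and between 4.66 and 11.4 afterwards, and every trained Ciart value (7.04 to 25.4) lies above every contralateral one (0 to 4.93).

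Tef (ENSRNOG00000019383; Rnor_6.0, chr7:123043503-123058605, plus strand), the PAR bZIP factor with the highest level, moved least. Its contralateral level ranged from 29.1 to 48.4, with a median of 38.8, and its trained level from 35.3 to 44.9, with a median of 39.1. After 2 days it stood at 43.8, 48.4 and 46.3 in contralateral and 39.7, 41.4 and 35.3 in trained muscles. Those groups did not overlap, as for 35.5% of all genes, and the difference of -0.25 ± 0.13 did not pass (adjusted p = 0.197). The 95% confidence intervals of the Tef difference ran from -0.53 to 0.03 after 2 days, -0.34 to 0.22 after 10, -0.04 to 0.53 after 20 and -0.12 to 0.44 after 30 days, so a change larger than 0.53 on the log2 scale lay outside all of them.

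Hlf (ENSRNOG00000002456; Rnor_6.0, chr10:77840568-77918192, minus strand), the third PAR bZIP factor, was expressed far below the other activators and was narrowly spread in contralateral muscle, from 2.53 to 3.23 in all 12. Trained levels spread from 0.713 to 2.87. After 30 days the contralateral values were 2.89, 2.82 and 3.23 and the trained values 0.842, 0.713 and 1.04, with no overlap. After 20 days the contralateral values were 3.09, 3.06 and 2.95 and the trained values 0.872, 1.74 and 2.28, again without overlap. No overlap was seen for 28.6% of all genes after 30 days and for 31.9% after 20 days. After 2 days the trained values were 2.61, 1.19 and 1.10 and after 10 days 2.87, 1.32 and 2.81, so that 1 or more trained muscles at both times lay within the contralateral range.

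Hlf fell by 1.10 ± 0.20 after 30 days (adjusted p = 0.00320) and by 0.65 ± 0.20 after 20 days (adjusted p = 0.0365). The differences after 2 and 10 days, -0.53 and -0.26, did not pass (adjusted p = 0.0709 and 0.384). Over the 12 rats the mean was -0.64 ± 0.10 (adjusted p = 0.000163), with lower levels in 10 of 12 trained muscles (exact sign-flip permutation test, two-sided, p = 0.00195), and the effect was not shown to differ between time points (adjusted p = 0.332). The 20-day call was lost without replicate 1 (-0.42, adjusted p = 0.290) or replicate 2 (adjusted p = 0.110) of that group, on the values as deposited (adjusted p = 0.0556), with a pseudocount of 0.1 (adjusted p = 0.0587) and without the filter (adjusted p = 0.0545). Without replicate 1 of the 2-day group, the Hlf difference after 2 days was -0.81 (adjusted p = 0.0170).

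Nfil3 (ENSRNOG00000011668; Rnor_6.0, chr17:12261102-12276316, plus strand), the repressor at D-boxes, passed at no time point. After 10 days it stood at 48.4, 47.9 and 48.9 in contralateral and 36.2, 36.7 and 30.2 in trained muscles, with no overlap. At that time 34.6% of all genes showed no overlap. The Nfil3 difference after 10 days was -0.49 ± 0.17 (adjusted p = 0.0547). It passed without replicate 1 (adjusted p = 0.0479) or replicate 2 (adjusted p = 0.0124) of the 2-day group, without all 2-day rats (adjusted p = 0.0185), with an intensity trend (adjusted p = 0.0412) and with a filter on a mean of at least 10 (adjusted p = 0.0319). In each of these fits the difference itself stayed at -0.49, and only its error and adjustment changed. After 2 days Nfil3 stood at 18.6, 29.5 and 17.2 in contralateral and 29.7, 23.9 and 26.7 in trained muscles. The trained muscle was the higher in the first and the third rat and the lower in the second, and the difference of 0.32 (adjusted p = 0.193) became 0.63 (adjusted p = 0.0205) without the second. The differences after 20 and 30 days were -0.26 (adjusted p = 0.317) and -0.16 (adjusted p = 0.593). Over all 12 rats Nfil3 was lower in 9 trained muscles, with a mean of -0.15 (adjusted p = 0.175). Without the 2-day rats that mean was -0.30 and passed (adjusted p = 0.00684).

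Since the 3 activators and Nfil3 share a DNA site, their summed level over that of Nfil3 is given for each muscle, as a description without a test. After 2 days the ratio was 4.56, 2.60 and 6.19 in contralateral and 1.92, 2.37 and 2.49 in trained muscles. After 10 days it was 1.03, 0.951 and 0.954 in contralateral and 1.47, 1.34 and 1.70 in trained muscles. The ratio was thus lower in the trained muscle of every rat after 2 days and higher in every rat after 10 days. After 20 days the contralateral ratios were 1.38, 2.31 and 2.41 and the trained ratios 2.18, 3.93 and 3.50. After 30 days they were 1.16, 1.298 and 1.88 in contralateral and 2.32, 1.42 and 1.84 in trained muscles, higher in 2 of 3 rats. Dbp made up 33.6% to 53.8% of the summed activators in the 2-day contralateral muscles and 9.99% to 21.45% in the other 9, and Tef most of the rest.

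**Figure D3:**
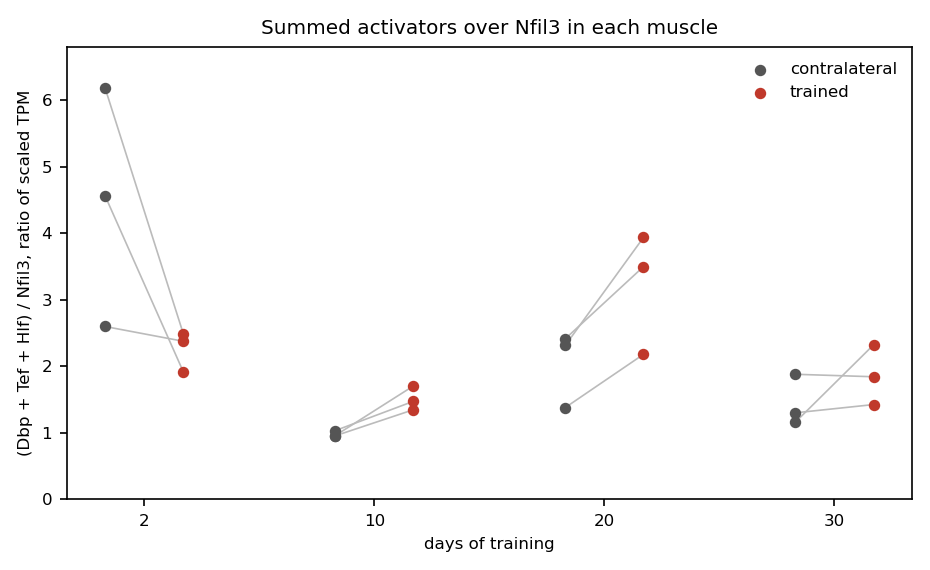
Summed scaled TPM of Dbp, Tef and Hlf divided by that of Nfil3 in each contralateral (grey) and trained (red) muscle, with a line joining the muscles of a rat. After 2 days the ratio is lower in all 3 trained muscles (1.92 to 2.49) than in their contralateral muscles (2.60 to 6.19), and after 10 days it is higher in all 3.

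Ciart (ENSRNOG00000042717; Rnor_6.0, chr2:197987705-197991575, minus strand), a repressor of CLOCK and BMAL1 activity, had the lowest contralateral mean of the 7 genes and the largest difference. After 2 days it stood at 3.38, 4.93 and 3.91 in contralateral and 19.4, 19.2 and 7.04 in trained muscles. After 10 days the contralateral values were 1.01, 1.05 and 0.403 and the trained values 9.68, 10.4 and 18.1. After 20 days Ciart was listed at 0 in 1 contralateral muscle and stood at 0.160 and 0.440 in the others, against 25.4, 24.3 and 17.3 in trained muscles. The muscle at 0 had 40 of the tested genes at 0, within the 21 to 71 of all muscles. After 30 days it stood at 0.744, 0.253 and 0.311 in contralateral and 17.2, 14.5 and 9.82 in trained muscles. The 12 trained muscles did not overlap with the 12 contralateral muscles, as for 4.23% of all genes.

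The Ciart difference was 1.57 ± 0.30 after 2 days (adjusted p = 0.00217), 2.88 ± 0.30 after 10 days (adjusted p = 2.45e-05), 4.28 ± 0.30 after 20 days (adjusted p = 1.71e-06) and 3.35 ± 0.30 after 30 days (adjusted p = 1.47e-05). Its mean was 3.02 ± 0.15 (adjusted p = 5.08e-09), higher in 12 of 12 rats, and the exact sign-flip permutation test gave p = 0.000488 (two-sided), the smallest it can give. None of these 5 calls was lost under any alternative that kept the gene in the fit. The ratio of the means was 3.74 after 2 days and 15.5 after 10 days. Later ratios rest on contralateral values close to 0 and are not given.

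The Ciart effect differed between time points (limma F = 14.6, adjusted p = 0.0279), by 2.71 between 20 and 2 days (adjusted p = 0.00957) and by 1.78 between 30 and 2 days (adjusted p = 0.0394). This call was lost with a pseudocount of 0.1 (adjusted p = 0.0774), without the filter (adjusted p = 0.0697) and without any 1 of 7 rats, which were replicates 2 and 3 of the 2-day group, replicates 1 and 2 of the 20-day group and each 30-day rat, with adjusted p between 0.0502 and 0.103. The trained levels of Ciart themselves were not shown to differ between time points (adjusted p = 0.375), while the contralateral levels did, as given below.

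Bhlhe40 (ENSRNOG00000007152; Rnor_6.0, chr4:140703619-140709320, plus strand), an E-box repressor and the most highly expressed of the 7, rose after 10 days. It then stood at 38.0, 39.6 and 49.9 in contralateral and 61.8, 56.7 and 73.7 in trained muscles, with no overlap. After 20 days the values were 56.8, 52.9 and 54.8 in contralateral and 69.6, 64.2 and 81.4 in trained muscles, also without overlap. No overlap was seen for 34.6% of all genes after 10 days and for 31.9% after 20 days. After 2 days the Bhlhe40 values were 54.8, 44.1 and 58.2 against 62.9, 62.1 and 47.1, and after 30 days 50.4, 52.4 and 68.0 against 64.1, 50.5 and 72.8, with overlap at both times. The difference was 0.58 ± 0.14 after 10 days (adjusted p = 0.0108) and 0.38 ± 0.14 after 20 days (adjusted p = 0.0888), and it was 0.13 after both 2 and 30 days (adjusted p = 0.569 and 0.612).

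Over the 12 rats Bhlhe40 rose by 0.30 ± 0.07 (adjusted p = 0.00363), with higher levels in 10 of 12 trained muscles (exact sign-flip permutation test, two-sided, p = 0.00732). Its 10-day call was lost without replicate 1 of that group (adjusted p = 0.0797), and in the deposited gene-level table neither the 10-day difference (adjusted p = 0.0516) nor the mean (0.28, adjusted p = 0.0753) passed. Bhlhe40 was not shown to respond differently at different time points (adjusted p = 0.426).

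Its paralog Bhlhe41 (ENSRNOG00000048961; Rnor_6.0, chr4:180232382-180234805, minus strand) passed at no time point. Bhlhe40 exceeded it 5.09- to 26.1-fold in contralateral and 6.26- to 15.6-fold in trained muscles. After 30 days it stood at 6.19, 3.45 and 6.28 in contralateral and 10.2, 6.998 and 8.96 in trained muscles, with no overlap. That difference was 0.65 ± 0.21 (adjusted p = 0.0584), and 28.6% of all genes showed no overlap at that time. After 10 days the contralateral values were 4.12, 3.66 and 1.91 and the trained values 5.47, 4.13 and 4.72, a difference of 0.48 ± 0.21 (adjusted p = 0.121). After 2 days the contralateral values were 5.15, 6.48 and 11.4 and the trained values 5.38, 5.94 and 4.45, so that the third contralateral muscle stood apart from the rest.

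Without that rat, the Bhlhe41 differences after 10 and 30 days passed (adjusted p = 0.0413 and 0.0170), as did the mean over the other rats (0.33, adjusted p = 0.00597, against 0.23 and 0.0900 with it). Without all 2-day rats the mean was 0.44 (adjusted p = 0.00231), and the 10-day and 30-day differences passed as well (adjusted p = 0.0473 and 0.0204). The 30-day difference also passed without replicate 1 of the 2-day group (adjusted p = 0.0472) or replicate 3 of the 10-day group (adjusted p = 0.0467). Where they passed, the differences after 10 and 30 days kept their size (0.48 and 0.65), and only their error and adjustment changed. Bhlhe41 was higher in the trained muscle of 10 of 12 rats (exact sign-flip permutation test, two-sided, p = 0.176). Among trained muscles alone its level was higher by 0.63 after 30 than after 2 days (adjusted p = 0.0369), a contrast in which 10.1% of all genes passed, while the F test over the 4 trained groups did not pass (adjusted p = 0.0607).

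The untrained levels of these factors were compared among the 12 contralateral muscles. Ciart (limma F = 45.7, adjusted p = 0.00682) and Dbp (F = 37.8, adjusted p = 0.00686) differed between time points, and they were 2 of only 7 genes, or 0.0666% of 10517, that passed. Contralateral Dbp was 40.5 ± 15.9 (SD, n = 3) after 2 days and 5.49 ± 1.04, 8.77 ± 2.58 and 7.03 ± 1.87 after 10, 20 and 30 days. Contralateral Ciart was 4.07 ± 0.79 (SD, n = 3) after 2 days, then 0.823 ± 0.365, 0.200 ± 0.222 and 0.436 ± 0.269. For both genes, all 3 of the 2-day muscles lay above the other 9, as for 1.89% of all genes.

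Against 2 days, contralateral Dbp fell by 2.62, 2.05 and 2.32 after 10, 20 and 30 days (adjusted p = 0.00280, 0.0228 and 0.00623), and contralateral Ciart fell by 1.49, 2.08 and 1.83 (adjusted p = 0.00965, 0.00154 and 0.00331). In these contrasts 0.0571%, 0.0666% and 0.0761% of all genes passed. Between 10, 20 and 30 days neither gene passed in any pair. The Dbp call over the 4 groups was lost without replicate 1 (adjusted p = 0.103) or replicate 3 (adjusted p = 0.0505) of the 2-day group. That of Ciart was lost without replicate 3 (adjusted p = 0.0505) and with a pseudocount of 0.1 (adjusted p = 0.115).

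Contralateral Nfil3 had its lowest mean after 2 days, with 21.8 ± 6.74 (SD, n = 3) after 2 days, 48.4 ± 0.522 after 10, 24.3 ± 5.70 after 20 and 32.1 ± 3.15 after 30 days. It did not pass over all genes (F = 13.99, adjusted p = 0.144) and passed without replicate 2 of the 2-day group (adjusted p = 0.0233). The adjusted p was 0.394 for Bhlhe41, 0.422 for Tef, 0.487 for Bhlhe40 and 0.849 for Hlf. In this contralateral F test 5 of the 7 genes had an unadjusted p under 0.05, beside 1153 of 10517 genes. Among the 12 trained muscles none of the 7 genes passed the corresponding F test, which 5.04% of 10828 genes did. An unadjusted p under 0.05 in that test was found for 2 of 7 (Nfil3 and Bhlhe41), beside 2362 of the 10828 genes. The lack of adjusted calls depended on the table: Nfil3 passed on the values as deposited (adjusted p = 0.0154), where 1841 of 10895 genes did. In the deposited gene-level table, where 3295 of 4630 genes passed, Dbp (adjusted p = 0.0130), Tef (adjusted p = 0.00291), Nfil3 (adjusted p = 0.000764) and Bhlhe40 (adjusted p = 0.0312) passed and Bhlhe41 did not (adjusted p = 0.893). Trained Dbp was 19.7 ± 9.05 after 2 days and 11.6 ± 2.56, 17.7 ± 4.48 and 11.8 ± 2.43 (SD, n = 3) after 10, 20 and 30 days (adjusted p = 0.257). Whether the spread over time was smaller on the trained side was not tested.

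By mean level, the order in contralateral muscle was Bhlhe40 (51.7), Tef (39.1), Nfil3 (31.7), Dbp (15.5), Bhlhe41 (5.46), Hlf (2.90) and Ciart (1.38). The ranges of every pair of neighbours in that order overlapped, and between 8 and 11 of 12 muscles kept a given pair in this order. In trained muscle the order was Bhlhe40 (63.9), Tef (39.5), Nfil3 (27.6), Ciart (16.04), Dbp (15.2), Bhlhe41 (6.35) and Hlf (1.62). Bhlhe40 lay above Tef and Bhlhe41 above Hlf in all 12 trained muscles with no overlap of their ranges, while Ciart exceeded Dbp in 8 of 12. The coefficient of variation over the 12 contralateral muscles was 108% for Dbp and 122% for Ciart, 8.04% to 43.4% for the others. Over the 12 trained muscles it was 38.6% for Dbp and 36.6% for Ciart.

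Dbp and Ciart each had 2 transcripts in the table. Dbp-201 made up 63.0% to 68.1% of Dbp in the 2-day contralateral muscles and between 4.92% and 74.3% in the other 9, and between 29.9% and 89.9% in trained muscles. How the reads of the overlapping Dbp transcripts were divided is not known, and with the transcript of the higher mean alone the differences after 20 and 30 days were 1.00 (adjusted p = 0.0538) and 0.80 (adjusted p = 0.141). Ciart-201 carried at least 94.9% of Ciart in every muscle where it was above 0.

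Beside the outputs, 12 genes of the core clock were in the table. Of these, 6 passed over the mean of the 12 rats, 2 higher and 4 lower, beside 43.4% of all genes. Cry2 (0.50 ± 0.05, adjusted p = 7.98e-06) and Per2 (0.41 ± 0.07, adjusted p = 0.000546), repressors of the loop, rose. Nr1d1 (-0.64 ± 0.11, adjusted p = 0.000409), which encodes the repressor REV-ERBα, was among those that fell, as were Clock (-0.28 ± 0.05, adjusted p = 0.000908) and Npas2 (-0.20 ± 0.07, adjusted p = 0.0276). The Clock difference was 0.02 after 2 days and -0.41, -0.39 and -0.35 after 10, 20 and 30 days (limma, adjusted p = 0.917, 0.0162, 0.0261 and 0.0552). It was not shown to differ between time points (limma F test, adjusted p = 0.289). The paper, with pooled controls, reports the largest decreases of Clock and Npas2 after 2 and 10 days.

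Of the 12 core clock genes, only Arntl passed the contralateral F test between time points (F = 27.5, adjusted p = 0.0190). An unadjusted p under 0.05 in that test was found for 9 of the 12, beside 1153 of 10517 genes. Arntl stood at 2.68, 4.70 and 1.90 in the 2-day contralateral muscles and between 7.84 and 13.5 in the other 9, so that Dbp and Ciart were high where Arntl was low. The effect of training on Arntl was 0.87 ± 0.17 after 2 days (adjusted p = 0.00243) and -0.55 ± 0.17 after 20 days (adjusted p = 0.0376), and it differed between time points (F = 17.4, adjusted p = 0.0214). After 10 and 30 days the Arntl differences of -0.47 and -0.53 did not pass (limma, adjusted p = 0.0618 and 0.0533). Dbp and Arntl thus passed in opposite directions after 2 and 20 days. Within the 9 contralateral muscles of 10, 20 and 30 days, Pearson's r with Arntl was -0.77 for Dbp, 0.67 for Nfil3 and 0.16 for Ciart, given as a description of muscles that share the scaling and the method of measurement.

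**Figure D4:**
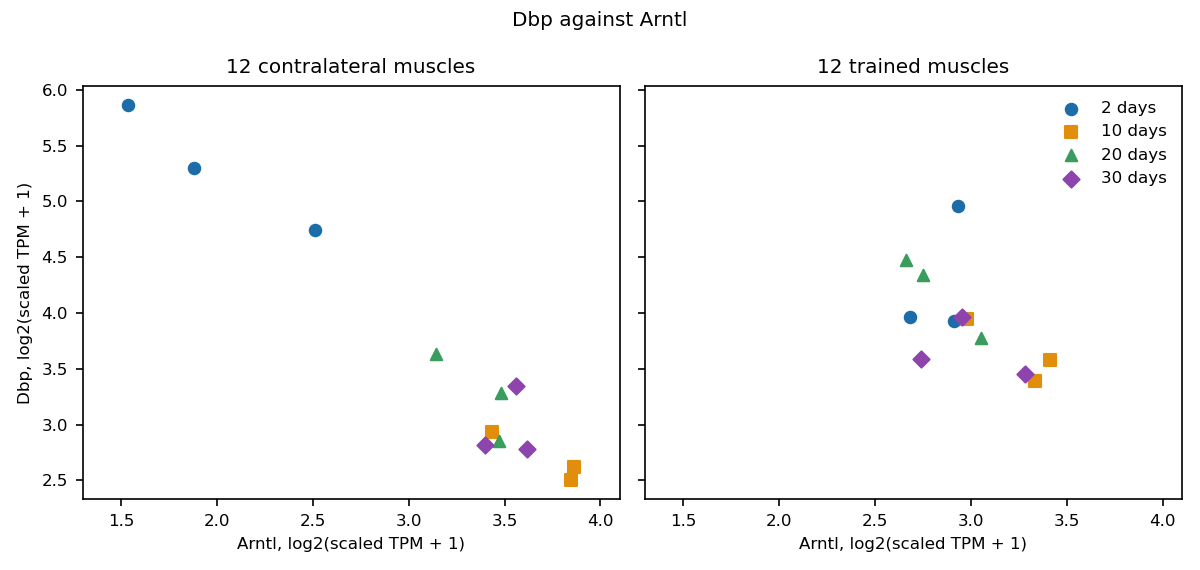
Dbp against Arntl, both as log2(scaled TPM + 1), in the 12 contralateral (left) and 12 trained (right) muscles, with a symbol for each time point. The 3 contralateral muscles of 2 days stand apart at high Dbp (25.8 to 57.4 scaled TPM) and low Arntl (1.90 to 4.70), and no trained muscle lies there.

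Of the other lists, 7 of 14 tested clock kinases and ligases passed over the mean of the 12 rats, 1 higher and 6 lower, beside 43.4% of all genes. Their median difference was -0.16, beside -0.02 for all genes. In contralateral muscle 0 of 14 passed limma's F test between time points, with 1 at an unadjusted p under 0.05, beside 1153 of 10517 genes. Of 15 tested clock-controlled genes that lie further downstream, 7 rose and 3 fell, with a median of 0.20, beside the same 43.4%. The largest of these were Coq10b (1.04 ± 0.12, adjusted p = 1.60e-05), which takes part in coenzyme Q function, and Ucp3 (-0.78 ± 0.15, adjusted p = 0.00105), a mitochondrial uncoupling protein. In the same list Pdk4, the kinase that limits pyruvate oxidation, differed between time points in contralateral muscle (F = 30.6, adjusted p = 0.0153), with 49.3 to 80.2 after 2 days and 119.3 to 291.8 in the other 9. Glucocorticoid-responsive genes, a group that also includes Per1, rose in 3 and fell in 7 of 14, with a median of -0.32, and hypoxia-responsive genes rose in 5 and fell in 7 of 14, with a median of -0.18. Both counts also stand beside 43.4% of all genes, and nothing particular to these lists is read from them. In contralateral muscle the limma F test between time points passed for 0 of 14 glucocorticoid-responsive genes and for 0 of 13 hypoxia-responsive genes. An unadjusted p under 0.05 in that test was found for 3 and 1 of them, beside 1153 of 10517 genes.

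The genes whose contralateral pattern was most like that of each factor were ranked by Pearson's r of log2 values over 12 muscles among 11194 genes, as a description. For Dbp the closest was Nr1d2, which encodes REV-ERBβ (r = 0.88, and 0.97 over the 9 muscles without the 2-day group). The next for Dbp were Wnt11 (0.87) and N6amt1 (0.86), which dropped to 0.31 and 0.06 without the 2-day muscles. For Ciart they were Rpl3l (0.93), LOC100912618 (0.93) and N6amt1 (0.91), which dropped to 0.68, 0.53 and 0.39. For Nfil3 they were C2 (0.85), Pdk4 (0.85) and Hsp90aa1 (0.84), with 0.79 to 0.84 without the 2-day muscles.

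For Tef the closest in contralateral muscle were Timm10 (0.91), Hnrnph1 (0.90) and Fbxo9 (0.90), for Hlf Atrn (0.94), Cbfa2t2 (0.92) and Rab3gap2 (0.92), for Bhlhe40 Xpo5 (0.88), Tnrc18 (0.87) and Nacc2 (0.87), and for Bhlhe41 Rcsd1 (0.92), Tnfrsf21 (0.86) and Ttyh3 (0.81). By the 12 trained minus contralateral differences, Dbp was most like Mcam (0.93), Tmem132a (0.92) and Adgrl2 (0.92), which dropped to 0.62, 0.86 and 0.65 over the 9 rats without the 2-day group. Ciart was close to Lpar3 (0.93) and Ebf1 (0.92), with 0.85 and 0.88 over those 9 rats. On that measure Hlf was close to Rbm27 (0.92) and AABR07014885.1 (0.91), and Tef closest to Abcb8 (0.94), Snap47 (0.92) and Supt7l (0.90). The remaining 3 were closest to Ssx2ip (0.86) for Nfil3, Yeats2 (0.87) for Bhlhe40 and Scrn3 (0.90) for Bhlhe41, with 0.81, 0.91 and 0.84 over the 9 rats. None of the 7 was among the 3 closest genes of another.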

How the data were processed

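The authors sequenced poly-A RNA from 24 muscles, trimmed the reads, used STAR within Partek Flow for alignment to Rnor_6.0 and quantified Ensembl transcripts; the processing notes of the submitters also name DESeq2. The deposited transcript table holds TPM-type values for 20027 transcripts with the same total in every sample. These values keep no depth, so the precision that depth gives could not be used. A second deposited table holds gene-level signal values for 4635 genes, 5 of these 7 among them, and was used as an alternative only. A further table of the authors' p-values, FDR values, fold changes and group means was not used.

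Transcript values were divided by median-of-ratios factors (0.778 to 1.14, from 16230 transcripts above 0 in all samples), since the methods of the study name that normalization, and summed per gene. Genes that reached 1 in 3 or more samples were fitted as log2(value + 1) in limma 3.58.1 (R 4.3.3), with rat as a fixed block and a trained term per time point. Contralateral and trained levels were compared within 12 muscles each, with no block. P-values were adjusted by Benjamini-Hochberg over all genes tested at a threshold of 0.05. Groups came from the sample titles, and the left and right muscle of 1 rat share the animal number in the labels. As a check, deviations from group means were correlated between muscles, with a median r of 0.174 within rats (0.0277 to 0.343, 12 pairs). Between rats the median r was -0.00964 (-0.312 to 0.296, 132 pairs), so the ranges overlapped. None of 276 pairs of libraries was identical. The fits were tested on simulated data. Python 3.11.15, scipy 1.17.1 and matplotlib 3.10.9 were used for tables, permutation tests and plots.

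The 7 genes and all lists were chosen with earlier results of these data known. Named with values were the 7 genes, core clock genes past the threshold in the mean effect or in the contralateral F test, at most 2 genes per other list and comparison, and the 3 genes most like each factor. Alternatives were the values as deposited, a pseudocount of 0.1, no filter, a mean of at least 10, an intensity trend, 1 transcript per gene, each rat left out, 2 fits without the block and, added after the data were seen, the gene-level table and the omission of the 2-day rats. Some genes that the naming rule selected are not reported here.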

Additional observations from a re-analysis of the deposited data

Results flagged for a closer look

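The effect of training differed between time points for Dbp (limma F test, adjusted p = 0.00248), which was lower in the trained muscle after 2 days in 3 of 3 rats and higher in 9 of 9 rats later. It differed also for Ciart (adjusted p = 0.0279), which was higher in the trained muscle of all 12 rats by an amount that was smallest after 2 days (1.57 on the log2 scale) and largest after 20 days (4.28). In both genes the contralateral level of the 2-day rats stood above that of the other rats. Without the 2-day rats neither difference passed (adjusted p = 0.842 for Dbp and 0.328 for Ciart).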

How the results depend on the processing

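Over all genes, a filter on a mean of at least 10 tested fewer genes and gave 1409, 1114, 932 and 771 calls after 2, 10, 20 and 30 days, 1939 for the mean effect, 271 for effects that differed between time points and 4 for contralateral levels, against 2417, 2252, 1944, 1377, 4862, 128 and 7. On the values as deposited there were 838 calls after 30 days and 1841 for trained levels, against 546. Effects that differed numbered 193 with an intensity trend, 69 without the filter and 30 with a pseudocount of 0.1; contralateral levels numbered 3 without the filter, and trained levels 332 with that pseudocount. Without the 2-day rats they numbered 2, 1 and 61. Leaving out 1 rat gave 957 to 2476, 1222 to 2287, 964 to 1987 and 582 to 1414 calls after 2, 10, 20 and 30 days, 20 to 340 for effects that differed, 135 to 947 for trained and 0 to 12 for contralateral levels, with 0 in limma without replicate 3 of the 2-day group (1095 at an unadjusted p under 0.05).

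Without the replicate block, the 12 pooled contralateral muscles gave 3235, 3240, 2393 and 2304 calls after 2, 10, 20 and 30 days and 1345 for effects that differed, and time-matched muscles gave 2196, 2007, 1589, 1121 and 142, with 4563 for the mean effect. Pooling also turned Dbp after 2 days (0.73), Nfil3 after 2 and 10 days (-0.15 and 0.19) and Bhlhe41 after 2 and 10 days (0.031 and -0.085), and changed calls for Dbp, Hlf, Ciart and Bhlhe40. Dropping the block with time-matched muscles changed 1 call among the 7 genes, Dbp after 30 days. Other reversals were of differences that had not passed: Tef after 10 days as deposited (0.023) and in the gene-level table (0.092, and -0.10 after 30 days), the Tef mean (-0.013 without replicate 1 of 30 days, up to 0.061 without another rat), Bhlhe40 after 2 days (-0.052 without replicate 2 of that group, up to 0.34 without another rat) and after 30 days in the gene-level table (-0.13). For the 19 called results of the 7 genes, 352 of 391 alternatives kept direction and call, 38 lost the call and 1 reversed. For the 37 others, 731 of 766 kept both, 25 gained a call and 10 reversed. The cause was not tested. Leaving out a rat of another time point changes only the error and adjustment of a difference at a single time point. Such fits could not reverse that difference, and these counts include them among those that kept direction. The values used keep no sequencing depth, so counting error at the low levels of Ciart and Hlf could not be given.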
